A study of Mus musculus with 4 samples.

Results

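The cytosolic ribosome is built from ribosomal RNA and ribosomal proteins, and the genes of these proteins were compared between Fgf10-lineage cells of the adult and the young mouse salivary gland. The members are the protein-coding genes whose mouse symbol starts with Rpl or Rps followed by a digit, with Rplp0, Rplp1, Rplp2 and Rpsa. The rule leaves out the Rps6k kinases, symbols ending in -ps (with or without a number after it) and symbols ending in l. Of 102 protein-coding genes with such a prefix, 10 were Rps6k genes, 6 ended in -ps and 5 ended in l. This left 81 of the 53465 genes in the count files, 48 named for the large and 33 for the small subunit. They lie on 19 chromosomes, 4 of them on X. The label holds for nearly all of them: Rps19bp1 encodes a protein that binds Rps19 and is not itself a ribosomal protein, and Rpl22l1, Rpl7l1 and Rps27rt are paralogs or copies of canonical genes. Fau, whose product carries a ribosomal protein fused to a ubiquitin-like protein, and Rack1 fall outside the rule.

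All mice were C57BL/6J and carried Fgf10CreERT2 and Rosa26Tomato fl/fl, a tamoxifen-inducible Cre driven from Fgf10 with a floxed red fluorescent reporter. Cells that express Fgf10 when tamoxifen is given are thereby marked, and the marked cells of the submandibular gland (SMG), one of the major salivary glands, were sorted. Adults received tamoxifen at 0.1 mg per g of weight on postnatal days 57 and 58 and were taken on day 60. Pups received tamoxifen at the same dose on days 4 and 5 and were taken on day 7. Each age has 2 libraries, made from 1 ng of total RNA with a full-length, poly(A)-primed kit (SMART-Seq HT). The labels do not say whether the libraries of an age come from separate animals, so the spread between them may be technical.

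Ribosomal protein genes are transcribed at high rates in growing cells, and their mRNAs are among the most abundant and shortest of a cell. Their translation is coupled to growth signals: most of the mRNAs begin with a 5′ terminal oligopyrimidine (TOP) tract, a C at the first base followed by an unbroken run of C and T (U in the RNA), through which the mTORC1 pathway acts by way of Larp1. The proteins are needed in equal numbers, since each ribosome holds 1 copy of nearly every one, the P stalk proteins Rplp1 and Rplp2 being the known exception. In secretory glands such as the SMG, ribosomes supply the large protein output of acinar and duct cells.

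The 4 libraries differed in quality, and this touches every comparison of age. Summed gene counts were 13791730 and 16585518 for the adults, and 7289792 and 21490686 for pup replicates 1 and 2. In pup replicate 1, 76.7% of the tallied reads lay in no annotated gene, against 9.70 to 10.6% in the other libraries, and 96.5% of 1134 olfactory receptor genes had at least 1 count, against 1.59 to 7.67%. Fgf10 itself was at 190 and 39.2 CPM (counts scaled to library size with edgeR's TMM factors) in adults, against 26.5 and 23.4 in the pups. Ionocyte markers (7 of 7 higher in both adults) summed to 2813 to 5824 CPM in adults and 44.4 to 61.1 in pups. Mesenchyme markers summed to 403 CPM in adult replicate 1, 19727 in adult replicate 2 and 22215 to 52070 in the pups. As a fold, though not as a difference in CPM, the adult libraries thus differed in this list by more than the pups did. Acinar markers summed to 43996 CPM in adult replicate 2 and to 535 to 1980 in the other 3 libraries. Of the adult replicate 2 sum, Mucl2 held 36742 CPM and Prol1 6854. By log2 fold change, adult over pup, 4 of the 8 acinar markers were positive and 4 negative. Smgc, a negative one, was at 103 and 220 CPM in adults and at 511 and 1519 in the pups. In adult replicate 1, 4 of the 8 were at 0. Epithelium markers ranged over 7008 to 11493 CPM in adults and 1379 to 3289 in pups, granular duct markers over 3952 to 10151 and 125 to 337, and myoepithelium markers over 2105 to 4917 and 4633 to 13628. Leukocyte (6.89 to 101 CPM), endothelium (0.074 to 727), erythroid (0.22 to 11.6) and Schwann and nerve (26.0 to 175) markers were low in most libraries. Of these lists, 4 of 7 leukocyte, 4 of 5 endothelium and 4 of 5 erythroid markers were at 0 in adult replicate 1. The part of cell makeup and of library quality in the results on ribosomal proteins was not tested.

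The first bases of the mRNAs are shown because the pyrimidine tract at that place is the feature through which this gene family is best known to be controlled. RefSeq start sites (build GRCm38.p6) were found for 61 of the 81 members. Each line gives 40 bases before and 20 bases from the annotated start, 5′ to 3′ on the gene's strand. Capitals mark a C followed by C or T without a break, at least 6 bases in all and beginning within 3 bases of that start, searched on the transcript strand alone. RefSeq gives several starts for 8 of the 61 members, and a gene counts as having the tract if any of its starts does; 4 members, Rps24 among them, have it at some of their starts only. Shown are Rps6, Rpl38 and Rps24 (at the start that has it) as members with the tract; Rps27 and its copy Rps27rt, which share the bases after the start; Rpl13a, Rpl22l1, Rpl7l1 and Rps19bp1, the only members whose adult and pup libraries did not overlap; and Rplp0, among the most highly counted members.
Rps6: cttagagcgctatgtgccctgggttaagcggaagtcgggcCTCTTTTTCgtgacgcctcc
Rpl38: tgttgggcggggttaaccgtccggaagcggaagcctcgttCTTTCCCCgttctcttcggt
Rps24: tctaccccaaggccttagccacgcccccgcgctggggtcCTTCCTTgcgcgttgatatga
Rps27: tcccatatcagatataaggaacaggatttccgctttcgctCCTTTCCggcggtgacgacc
Rps27rt: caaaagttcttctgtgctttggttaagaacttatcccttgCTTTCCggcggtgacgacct
Rpl13a: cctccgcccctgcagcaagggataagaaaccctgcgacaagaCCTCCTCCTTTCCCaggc
Rpl22l1: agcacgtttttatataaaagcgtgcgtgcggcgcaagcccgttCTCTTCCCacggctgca
Rpl7l1: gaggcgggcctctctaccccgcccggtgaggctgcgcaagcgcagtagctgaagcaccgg
Rps19bp1: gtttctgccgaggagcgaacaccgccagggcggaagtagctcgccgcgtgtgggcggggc
Rplp0: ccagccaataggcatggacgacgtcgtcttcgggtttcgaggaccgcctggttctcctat

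These windows lie at chr4:86857348-86857407 on the minus strand for Rps6, chr11:114668540-114668599 on the plus strand for Rpl38 and chr14:24490638-24490697 on the plus strand for Rps24. Rps27 is at chr3:90213629-90213688 and Rps27rt at chr9:114982720-114982779, both on the minus strand. The window of Rpl13a is at chr7:45128726-45128785 (minus), that of Rpl22l1 at chr3:28805468-28805527 (plus) and that of Rpl7l1 at chr17:46782637-46782696 (minus). Rps19bp1 is at chr15:80264287-80264346 (minus) and Rplp0 at chr5:115559427-115559486 (plus). The tract was present in 25 of the 61 members with a RefSeq start (41.0%), against 8.53% of 27025 genes and 9.56% of the 11551 tested genes with one. Annotated starts can lie a few bases from the start used in these cells, and a window without the tract says only that these letters are not in it. The median log2 fold change between ages was -0.15 over the 25 members with the tract and -0.17 over the 36 without it.

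The share of ribosomal protein mRNA did not separate the ages: the adults and the pups overlapped, and the pups differed from each other more than the adults did. The 81 genes took 2.15% and 1.61% of all gene counts in adult replicates 1 and 2, and 1.61% and 2.93% in pup replicates 1 and 2 (296471, 266826, 117113 and 630115 counts). The adult mean was 1.88% ± 0.38 (SD, n = 2) and the pup mean 2.27% ± 0.94 (SD, n = 2). The 95% counting intervals (Wilson) were narrow, 1.60 to 1.62% for pup replicate 1 and 2.92 to 2.94% for pup replicate 2. The gap between the pups was thus larger than counting error. With mitochondria-encoded genes left out of the denominator the shares were 2.31, 1.74, 1.62 and 2.99%, in the same library order. An exact permutation test over 2 against 2 libraries cannot give a two-sided p below 0.333, and the ages overlap in this measure. In bulk libraries, fewer cells of a type and less RNA per cell cannot be told apart.

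In TMM-scaled CPM the median member stood at 222 and 200 in the adults and at 128 and 341 in the pups. Of the 81 members, 77 were highest in pup replicate 2, 77 were lowest in pup replicate 1, and 74 were both. The adults therefore lay between the pups for nearly the whole family. The median ratio of pup replicate 2 to pup replicate 1 was 2.65, with 80 members higher in replicate 2, and the median ratio of adult replicate 1 to replicate 2 was 1.16, with 69 higher in replicate 1.

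**Figure D1:**
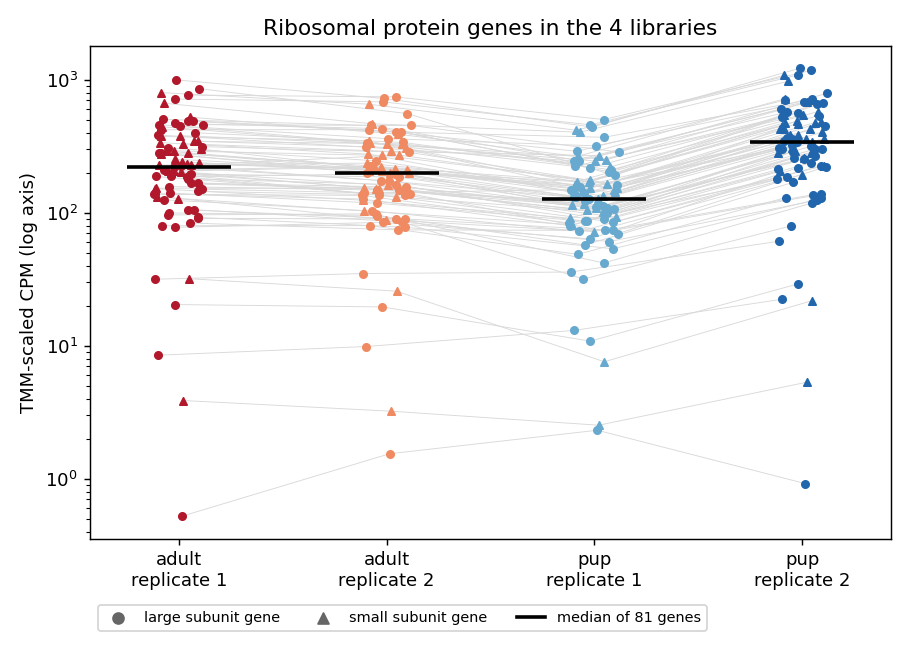
TMM-scaled CPM (log axis) of the 81 ribosomal protein genes in each library; each grey line joins 1 gene, circles are large and triangles small subunit genes, and black bars are medians. The medians are 222, 200, 128 and 341 from left to right, with both adults between the 2 pups.

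No ribosomal protein gene passed the test between ages. By edgeR's quasi-likelihood test, 0 of 81 members had an adjusted p under 0.05, where 0% of all 16320 genes tested did, and the smallest adjusted p of a member was 0.615. At an unadjusted p under 0.05, edgeR called 0 of 81 members, against 14.5% of all genes tested. DESeq2 called 0 of 81, against 9.02% of all genes. Both adults exceeded both pups in CPM for 2 members, Rpl7l1 and Rps19bp1, against 21.8% of all genes. Both pups exceeded both adults for 2 members, Rpl13a and Rpl22l1, against 27.1% of all genes. Members whose libraries did not overlap by age were thus 4.94% of the family and 48.8% of all genes tested.

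The log2 fold changes (adult over pup; positive means higher in adults) had a median of -0.16 over the members and -0.24 over all genes tested. Over genes with at least 100 counts in every library, the median ratio of adult to pup mean was 0.895 for 78 members and 1.10 for all 7899 genes. At this floor the members thus lay below the median gene, and over all genes tested above it. Over the 81 members the log2 fold changes were negative for 61 and positive for 20, and 69 lay within 0.5 of 0. The standard errors were larger than most of these values, with a median of 0.69 and a range of 0.51 to 1.78. No member's log2 fold change exceeded 1.40 times its standard error. Large subunit genes had a median of -0.15 (15 of 48 positive) and small subunit genes of -0.23 (5 of 33 positive). The direction of the family rests on the pups. Without pup replicate 1 the median was -0.68, with 4 of 81 positive. Without pup replicate 2 it was 0.68, with 78 of 81 positive. Over all genes tested these medians were 0.04 and -0.21. With an expected background (its rate over olfactory receptor genes) taken out of pup replicate 1, the family median was -0.31, with 6 of 81 positive. The median of all genes was then -0.06. Under at least 1 of 15 alternative settings 76 members changed sign. The 5 that did not were Rps19bp1, Rpl7l1 and Rplp1 (positive) and Rpl13a and Rpl22l1 (negative).

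**Figure D2:**
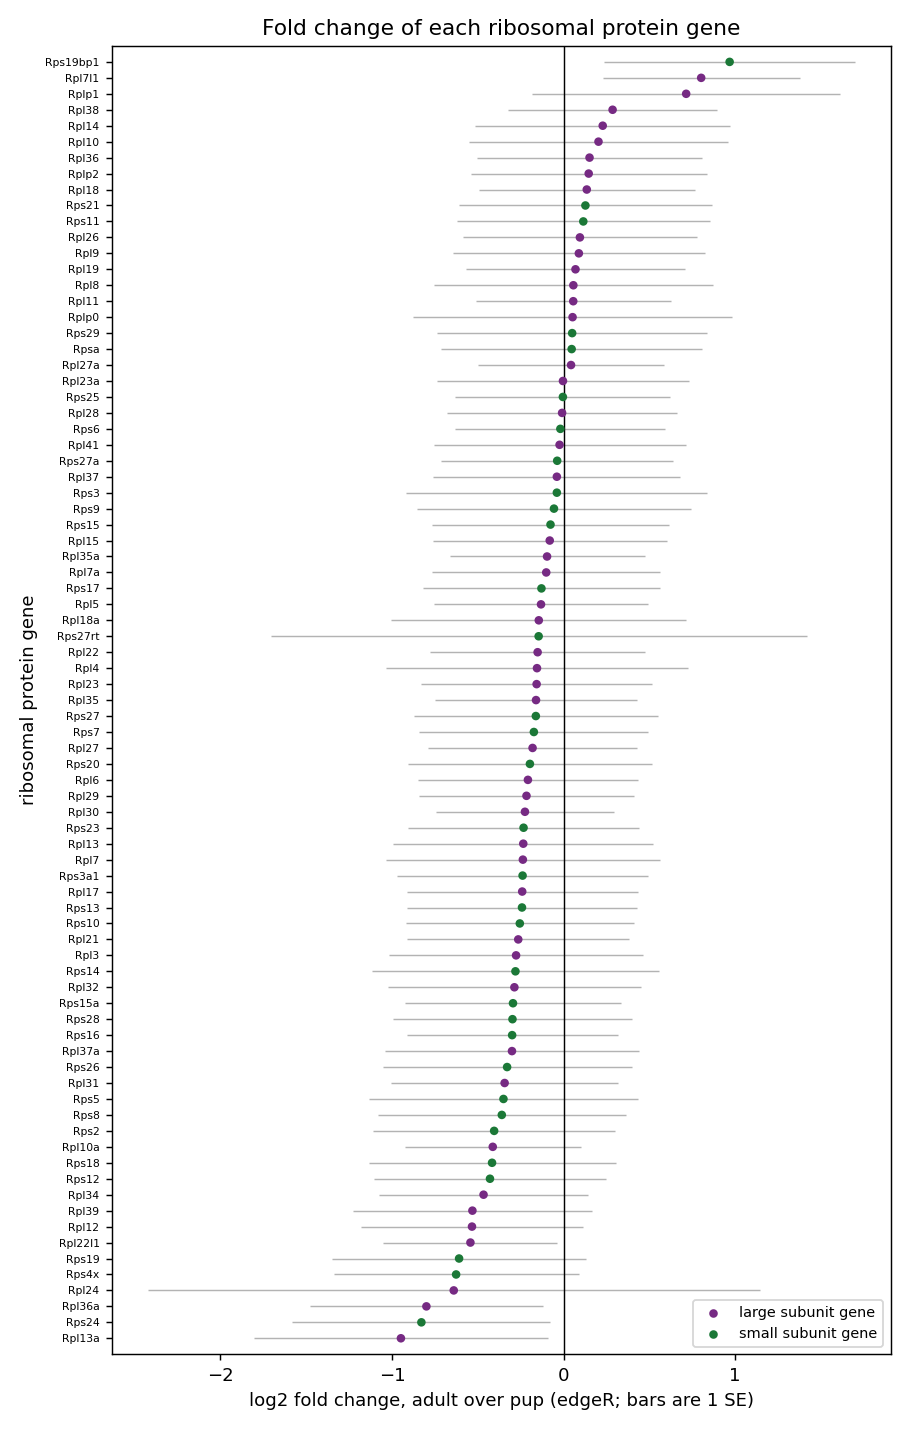
Log2 fold change, adult over pup, of each of the 81 genes by edgeR (points) with 1 standard error on each side (bars); purple marks large and green small subunit genes. Values run from -0.95 for Rpl13a to 0.97 for Rps19bp1, and 69 of the 81 lie within 0.5 of 0.

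Rplp0, Rplp1 and Rplp2 form the P stalk, the flexible arm of the large subunit that recruits elongation factors. Rplp1 (chromosome 9, 61913284 to 61914542, minus strand) was at 859 and 558 CPM in the adults and at 191 and 673 in the pups. Its adult values lay on both sides of the higher pup, and its log2 fold change was 0.71 ± 0.90 (SE; edgeR adjusted p = 0.797). Rplp0, which anchors the stalk to ribosomal RNA, was at 1000 and 724 CPM in the adults and at 442 and 1221 in the pups. Rplp2 was at 307 and 246 CPM in the adults and at 141 and 359 in the pups. For Rplp0 and Rplp2 pup replicate 2 was the highest library and pup replicate 1 the lowest, with log2 fold changes of 0.05 ± 0.93 and 0.15 ± 0.69 (SE).

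Rpl5 and Rpl11 join the 5S ribosomal RNA in a particle that can also bind Mdm2, the ubiquitin ligase of p53, and Rpl23 binds Mdm2 as well. Rpl5 was at 140 and 127 CPM in the adults and at 79.9 and 212 in the pups. Rpl11 was at 138 and 135 in the adults and at 83.7 and 179 in the pups. Rpl23 was at 187 and 197 in the adults and at 112 and 316 in the pups. In all of them the adults were close to each other and lay between the pups, and the log2 fold changes ran from -0.16 to 0.06.

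The 9 members of the peptide exit tunnel and its rim (Rpl4, Rpl17, Rpl19, Rpl22, Rpl23a, Rpl26, Rpl31, Rpl35 and Rpl39) had a median log2 fold change of -0.15, from -0.53 to 0.10, with 2 positive. Rpl4, which reaches into the tunnel wall, was at 768 and 744 CPM in the adults and at 503 and 1181 in the pups. Rpl39, a very small protein of the tunnel, was at 141 and 118 CPM in the adults and at 86.2 and 288 in the pups (log2 fold change -0.53 ± 0.69, SE). Rpl26, near the tunnel exit, was at 284 and 226 in the adults and at 132 and 345 in the pups. The pups bracketed the adults in each of these genes. The 5 members at the mRNA entry and decoding sites (Rps2, Rps3, Rps23, Rps9 and Rps15) were all slightly negative, from -0.40 to -0.04. Rps3, part of the mRNA entry channel, was at 803 and 656 CPM in the adults and at 418 and 1081 in the pups.

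Among 16 genes whose human counterparts are mutated in Diamond-Blackfan anaemia, a congenital failure of red cell production, 3 log2 fold changes were positive and 13 negative, with a median of -0.17. Rps19, the gene most often affected, was at 331 and 289 CPM in the adults and at 269 and 677 in the pups. Its log2 fold change was -0.61 ± 0.74 (SE; edgeR adjusted p = 0.790). Rps24 was at 153 in both adults and at 114 and 429 in the pups, with a log2 fold change of -0.83 ± 0.75 (SE; edgeR adjusted p = 0.704). Neither separated the ages, since pup replicate 1 lay below both adults. The 4 X-linked members had a median of -0.58. Rpl36a was at 77.7 and 84.7 CPM in the adults and at 63.6 and 219 in the pups, Rps4x at 206 and 222 against 171 and 489, and Rpl10 at 470 and 429 against 218 and 563. Only Rpl10 was positive, at 0.20 ± 0.75 (SE).

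Rps6, the substrate of the S6 kinases, was at 164 and 150 CPM in the adults and at 92.7 and 225 in the pups, with a log2 fold change of -0.02 ± 0.61 (SE). Rpl38, which is known for its part in the translation of Hox mRNAs, was at 105 and 90.5 in the adults and at 41.9 and 118 in the pups (0.29 ± 0.61, SE). Rpsa, which binds laminin as well as the small subunit, was at 345 and 307 in the adults and at 149 and 481 in the pups (0.05 ± 0.76, SE). These genes followed the family, with the adults between the pups.

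The 4 members whose CPM did not overlap between ages were all below the median of the family. Rps19bp1 (chromosome 15, 80260615 to 80264315, minus strand) was at 31.9 and 25.7 CPM in the adults and at 7.57 and 21.8 in the pups, the highest log2 fold change of the family at 0.97 ± 0.73 (SE; edgeR adjusted p = 0.637). Rpl7l1 (chromosome 17, 46773907 to 46782672, minus strand), a paralog of Rpl7, was at 96.3 and 98.2 in the adults and at 31.7 and 79.7 in the pups (0.80 ± 0.57, SE; edgeR adjusted p = 0.615). Both were higher in each adult, and the nearer pup was replicate 2. Rpl13a (chromosome 7, 45125558 to 45128761, minus strand), known from the interferon-induced GAIT complex, was at 8.48 and 9.86 CPM in the adults and at 13.0 and 22.4 in the pups (-0.95 ± 0.86, SE; edgeR adjusted p = 0.703). Rpl22l1 (chromosome 3, 28805436 to 28807424, plus strand), a paralog of Rpl22, was at 31.6 and 34.9 in the adults and at 35.8 and 61.0 in the pups (-0.54 ± 0.51, SE; edgeR adjusted p = 0.714). Both were higher in each pup, with pup replicate 1 only just above the adults for Rpl22l1. Part of the counts of pup replicate 1 can be background, taken as its rate over olfactory receptor genes. This rate would give 29.7 of its 124 counts for Rpl13a and 27.9 of its 341 counts for Rpl22l1. It would give 21.1% of its count for Rps19bp1 and 16.3% for Rpl7l1. Whether Rpl13a and Rpl22l1 would still separate the ages with this background taken out was not tested.

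The makeup of the ribosomal protein counts was close to constant, so that the 2.65-fold gap between the pups was shared by the family. Each gene was expressed per 1000 counts of all 81 members, which takes out the level of the family. Over the 78 members with at least 100 counts in every library, the SD of the log2 ratio of these shares was 0.20 between the adults, 0.23 between the pups and 0.27 to 0.38 for the 4 adult and pup pairs. The corresponding SDs over the 7899 genes that pass the same floor of 100 counts were 0.80, 0.92 and 1.05 to 1.34. Those genes were not matched to the members in abundance or mRNA length. For 63 of the 81 members the mean adult and pup shares were within 0.3 log2 units of each other. The range over all 4 libraries was under 0.5 log2 units for 64 members and over 1 for 6.

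On this scale 21 members (25.9%) were higher in both adults, against 20.4% of all genes, and 28 (34.6%) were higher in both pups, against 21.5%. With the libraries scaled to the summed member counts, edgeR again called no member (smallest adjusted p 0.456). Rplp1 took 38.9 and 29.9 per 1000 member counts in adults, against 15.5 and 20.9 in the pups, 1.89-fold more in the adults by the means. Its partners differed less: Rplp2 took 13.9 and 13.2 in adults, against 11.4 and 11.2 in the pups, and Rplp0 45.3 and 38.8 against 35.9 and 38.0. All of the P stalk was thus a larger part of the adult counts in every library. Rpl38 took 4.76 and 4.85 in adults, against 3.41 and 3.68 in the pups.

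Rps19 took 14.99 and 15.5 per 1000 member counts in adults, against 21.8 and 21.1 in the pups, a difference larger than the gap within either age. Rps24 took 6.93 and 8.20 against 9.29 and 13.3, Rpl36a 3.52 and 4.54 against 5.17 and 6.81, and Rps4x 9.32 and 11.9 against 13.9 and 15.2. These 4 genes were a larger part of the pup counts in both libraries. The ratio of summed large to small subunit counts was 1.40 and 1.45 in adults, against 1.36 and 1.26 in the pups. The gap between the pups was wider than that between adult replicate 1 and pup replicate 1. Rplp1 is in the large subunit sum, at 38.9 and 29.9 per 1000 in adults against 15.5 and 20.9 in the pups. The ratio without Rplp1 was not taken, so it is not shown that the ages separate in this ratio without that gene. The difference cannot be read as one of the whole large or small subunit.

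**Figure D3:**
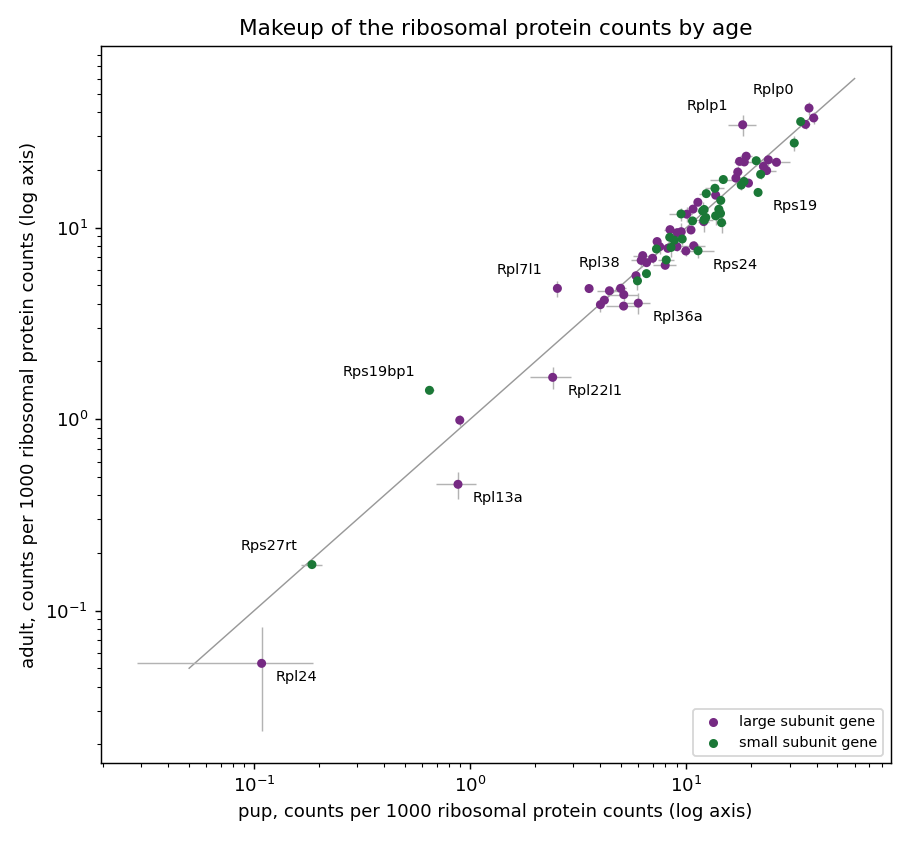
Counts of each gene per 1000 ribosomal protein counts, with pup on the horizontal and adult on the vertical axis (both log axes); points are means of 2 libraries, bars join the 2 libraries, and the line marks equal shares. Most of the 81 genes lie along the line; Rplp1, Rpl7l1 and Rps19bp1 lie above it, and Rps24, Rpl36a, Rpl22l1 and Rpl13a below it.

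Levels were compared between genes per kb of a representative mRNA. Rplp1 was highest by the mean, at 1721 and 1119 CPM per kb in the adults and at 382 and 1348 in the pups. Rps27 was next, at 1103 and 950 in the adults and at 712 and 1584 in the pups. Rps14 followed at 1118 and 783 against 676 and 1632, and Rps28 at 873 and 769 against 527 and 1491. Their order changed between libraries: Rplp1 led in both adults, and Rps14 led in pup replicate 2. The median mRNA of the members was 729 bases long, against 2792 for the protein-coding genes tested.

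The lowest member was Rpl24, at 0.77 and 2.27 CPM per kb in the adults and at 3.42 and 1.36 in the pups, from 7, 22, 22 and 18 counts. Rpl24 (chromosome 16, 55966275 to 55971435, plus strand) encodes a large subunit protein at the interface of the subunits, but 71.5% of its mRNA lies under another annotated gene, Gm28037, and 80.9% of its 75-base words occur in transcripts of other genes. Its low count cannot be read as a low level. The same holds for Rpl13a, with 59.3% of its mRNA under other annotated genes, and Rps27rt, with 90.3% of its words shared. Of the 8 members with over 25% of the mRNA under another gene, 5 were among the 10 lowest per kb. In all, 43 of the 81 members share over 50% of their words with another gene and 3 share none, among them Rps19bp1. Reads placed at more than 1 site numbered 24.6 to 28.3 per 100 gene reads in 3 libraries and 44.4 in pup replicate 1.

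Processed copies of ribosomal protein genes are frequent in mammalian genomes. The 296 annotated Rpl and Rps pseudogenes held 3118 and 2577 counts in adults, against 4182 and 6723 in the pups, that is 1.05, 0.966, 3.57 and 1.07 per 100 member counts. Pup replicate 1 stood apart. Its rate of counts over olfactory receptor genes would give 2048 of its 4182 pseudogene counts, and 2349 of its 117113 member counts. For the median member this background was 2.11% of the count, and for 7 members, Rpl13a, Rps19bp1 and Rpl7l1 among them, it was over 10%. With it subtracted, the member share in pup replicate 1 was 1.98% in place of 1.61%, and still below that of pup replicate 2.

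Paralogs were set against their canonical partner as a share of the counts of the pair, which does not depend on the scaling of the library. Rps27l, a p53-inducible paralog of Rps27 that the rule leaves out, made 39.1% and 36.5% of the pair in adults, against 21.3% and 24.9% in pups. The adult mean was 37.8% ± 1.83 and the pup mean 23.1% ± 2.58 (SD, n = 2). Both adults were above both pups, and the exact 95% counting intervals of each adult (38.0 to 40.1% and 35.4 to 37.6%) lay above those of the pups (19.8 to 22.8% and 24.2 to 25.6%). By the level of the gene, Rps27l was at 244 and 188 CPM in the adults and at 66.3 and 181 in the pups (log2 fold change 0.80 ± 0.66, SE; edgeR adjusted p = 0.668). Of the 75-base words of Rps27l, 12% also occur in other genes, against 98.5% of those of Rps27, and reads of Rps27 can therefore be lost to other sites more often.

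Rpl7l1 made 17.3% and 17.8% of its pair with Rpl7 in adults, against 9.97% and 9.16% in pups. The gap between ages was again larger than that within them. Rpl36al made 24.1% and 23.5% of its pair with the X-linked Rpl36a in the adults, with 18.6% and 6.60% for pup replicates 1 and 2. Here the pups differed from each other more than pup replicate 1 did from the adults. Rpl22l1 made 17.9% and 20.5% of its pair with Rpl22 in adults, against 29.6% and 21.3% in pups, and the counting intervals of adult replicate 2 and pup replicate 2 overlapped. Reads can be lost in these pairs too. Of the Rpl36al mRNA 63.1% lies under another annotated gene, and of the Rpl36a words 84.6% occur in other genes. For Rpl22l1 the overlap was 28.8% and the shared words 58.6%.

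Rps27rt, a near copy of Rps27, stayed between 0.961 and 1.02% of the pair in all 4 libraries. Rps4l, annotated as a transcribed processed pseudogene, made 18.3% of its pair with Rps4x in adult replicate 1 and 6.11 to 7.17% in the other libraries. Rpl39l, Rpl3l and Rpl10l, paralogs best known from testis or striated muscle, had 0 counts in both adults, which allows at most 0.178% of the pair for Rpl39l (3 counts, adult replicate 2). They had 34, 30 and 29 counts in pup replicate 1, where the olfactory receptor rate would give 11.7, 23.1 and 14.4, and 11, 0 and 0 in pup replicate 2.

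**Figure D4:**
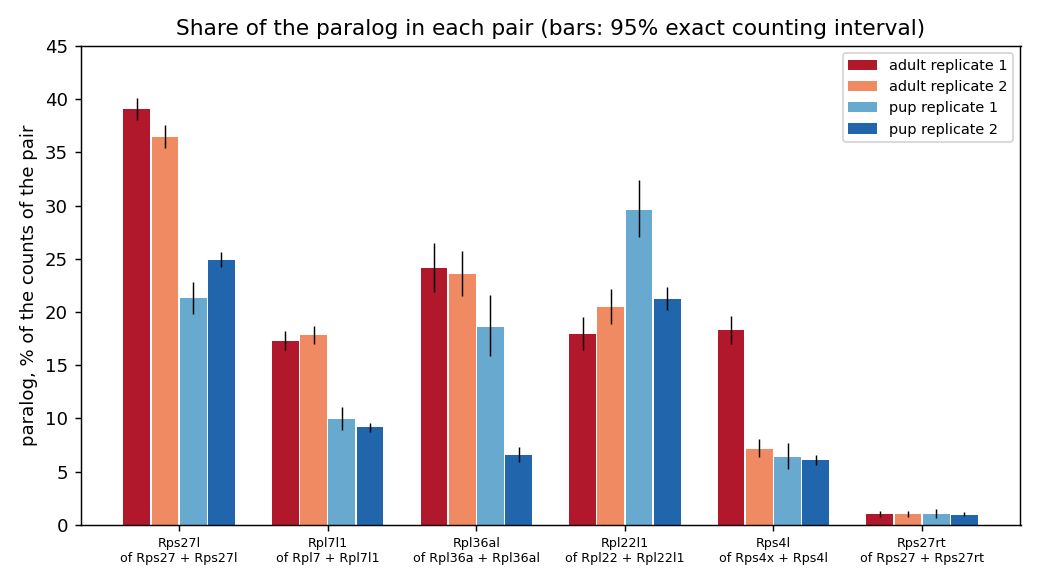
Share of the paralog in the summed counts of each gene pair, by library (bars, percent, from 0), with exact 95% counting intervals. Rps27l stands at 36.5 to 39.1% in adults and 21.3 to 24.9% in pups, Rpl7l1 at 17.3 to 17.8% and 9.16 to 9.97%, and Rps27rt at about 1% in all 4 libraries.

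The rest of the translation apparatus was read from the same edgeR fit, which called none of 259 tested genes on the other lists at an adjusted p under 0.05 (limma-voom 0). At an unadjusted p under 0.05 edgeR called 19 (7.34%, against 14.5% of all genes), and DESeq2 called 6 at an adjusted p (2.32%, against 9.02% of all genes). Rack1, a scaffold on the small subunit that the rule leaves out, was at 398 and 393 CPM in adults, against 264 and 742 in the pups. Ribosome biogenesis genes had a median log2 fold change of 0.03 (40 of 73 positive). Npm1, a nucleolar chaperone, was at 227 and 211 CPM in the adults and at 175 and 472 in the pups, and Ncl, which acts in ribosomal RNA processing, at 375 and 366 against 253 and 512. Elongation and nascent chain factors had a median of 0.12 (9 of 12 positive) and initiation factors of 0.21 (27 of 40 positive). Like that of the ribosomal proteins, these medians turned with the pup left out: without pup replicate 1 they were -0.42 (1 of 12 positive) and -0.15 (12 of 40 positive), and without pup replicate 2 they were 0.99 and 0.68. The biogenesis median ran from -0.02 without pup replicate 1 to 0.20 without pup replicate 2. Eef1a1, which brings tRNA to the ribosome, was at 2229 and 1870 CPM in the adults and at 1173 and 2730 in the pups, and Eef2, the translocase, at 1220 and 1546 against 782 and 1642. Eif4g2 was at 733 and 889 CPM against 464 and 1167, and Eif1, which acts in start codon selection, at 753 and 662 against 363 and 917. All of these abundant genes of translation had the pups on both sides of the adults.

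The mTORC1 and Myc list, the known upstream control of ribosome production, had a median log2 fold change of 0.01 (13 of 25 positive). Without adult replicate 1 this median was -0.22, and without each other library it was 0.13 to 0.18. DESeq2 called 3 of the 25 genes (12%, against 9.02% of all genes). Myc, a transcriptional activator of ribosome biogenesis, was at 61.9 and 133 CPM in the adults and at 258 and 537 in the pups, with a log2 fold change of -2.03 ± 0.73 (SE; adjusted p = 0.285 by edgeR and 0.0126 by DESeq2). Both pups were above both adults. Mycn had 0 and 1 counts in adults, against 123 and 34 in the pups, of which the background rate would give 46.3 in pup replicate 1 (adjusted p = 0.285 by edgeR and 0.0159 by DESeq2). Rps6ka1, a kinase that phosphorylates Rps6, was at 156 and 111 CPM in the adults and at 41.9 and 39.6 in the pups, with a log2 fold change of 1.72 ± 0.48 (SE; adjusted p = 0.263 by edgeR and 0.021 by DESeq2).

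The ribosome of the mitochondrion is made from separate nuclear genes. Of 77 tested, 73 had a positive log2 fold change (94.8%, against 42.9% of all genes tested), the median was 0.94, and 54 were higher in both adults (70.1%, against 21.8% of all genes). EdgeR called none at an adjusted p under 0.05. At an unadjusted p under 0.05 it called 12, or 15.6% against 14.5% of all genes. DESeq2 called 3, or 3.90% against 9.02%. The edgeR share was thus near that of all genes, and the DESeq2 share was below it. Mrpl12, which also binds the mitochondrial RNA polymerase, was at 125 and 66.3 CPM in the adults and at 11.2 and 26.0 in the pups (2.36 ± 0.64, SE; adjusted p = 0.261 by edgeR and 0.0188 by DESeq2). Mrpl46 was at 32.7 and 40.1 against 5.25 and 9.90, and Mrps25 at 40.4 and 51.4 against 7.46 and 13.6. In pup replicate 1 Mrps25 had 71 counts, where the background rate would by itself give 92.3. Without adult replicate 1, adult replicate 2, pup replicate 1 and pup replicate 2 in turn the median was 0.66, 1.04, 0.66 and 1.51. Unlike the median of the cytosolic family, it did not change sign. The difference between the lists was not tested.

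For comparison with other large complexes, 8 of 12 RNA polymerase II subunits were positive (median 0.63), as were 12 of 14 proteasome core subunits (median 0.62). Polr2e was at 95.04 and 116 CPM in adults, against 51.6 and 81.9 in the pups, and Psma7 at 369 and 262 against 93.2 and 258. Their medians also moved with the library left out. Without pup replicate 1 they were 0.23 for RNA polymerase II and 0.03 for the proteasome (8 of 14 positive), and without pup replicate 2 they were 0.91 and 1.40. Without adult replicates 1 and 2 in turn they were 0.33 and 0.35 for RNA polymerase II and 0.21 and 0.86 for the proteasome.

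**Figure D5:**
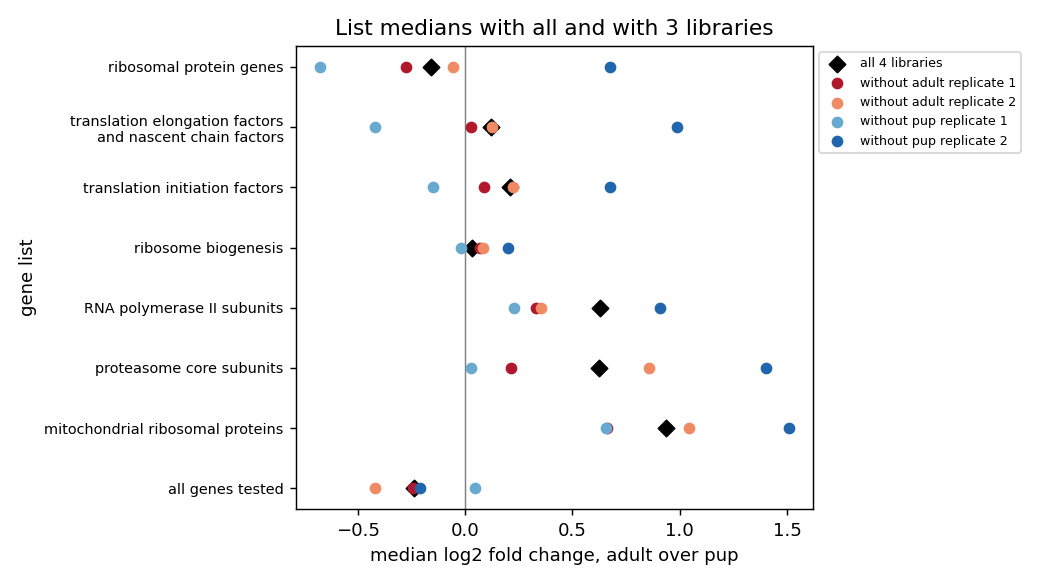
Median log2 fold change, adult over pup, of the ribosomal protein genes, 6 other gene lists and all genes tested, with all 4 libraries (black diamonds) and with each library left out (circles). The ribosomal protein median moves from -0.68 to 0.68 with the pup library left out, and the mitochondrial ribosomal protein median stays between 0.66 and 1.51.

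The gap between the pup libraries was not limited to the ribosomal proteins. Over genes with at least 100 counts in every library, the median ratio of pup replicate 2 to pup replicate 1 was 2.65 for the members, 2.71 for elongation factors, 2.84 for the proteasome core, 2.43 for RNA polymerase II subunits and 1.85 for mitochondrial ribosomal proteins. It was 1.12 for ribosome biogenesis genes and 1.40 for all genes. Among other protein-coding genes the ratio fell with mRNA length: it was 2.44 for 492 genes with an mRNA under 1000 bases, 1.80 from 1000 to 2000, 1.39 from 2000 to 4000 and 1.03 above 4000. The members had a median mRNA of 740 bases in this set, and their ratio of 2.65 stood beside 2.44 for other mRNAs under 1000 bases. The median ratio of the adult to the pup mean was 0.895 for the members and 1.10 for all genes. It was 1.56 for other genes with an mRNA under 1000 bases. Whether the length of the mRNA plays a part in the age comparison was not tested.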

How the data were processed

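The authors deposited raw counts per gene for each of the 4 libraries, with tallies of reads outside genes, ambiguous and not uniquely placed. Per the submitters' processing notes, cutadapt 1.18, STAR 2.5.2a, HTSeq 0.11.0, R 3.5.1, DESeq2 1.20.0 and GRCm38 were used; the options, the annotation release and any use of strand were not given in the sources used here. A further 8 value columns of series-wide tables match no sample name and were not used. Gene IDs were paired with symbols through GENCODE vM21 (53360 of 53465 matched); tally rows were left out of library sizes.

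Counts were tested with edgeR 4.0.16 (TMM; filterByExpr with minimum count 10 and minimum total 15; quasi-likelihood test; Benjamini-Hochberg adjustment over 16320 genes), with age as the only term. Alternatives used DESeq2 1.42.0, limma 3.58.1 (voom), other scalings and filters, a replicate block and each library left out. The fit was tested on simulated data with large changes and a smaller spread between libraries than here. The common biological coefficient of variation of the real fit was 0.895. The simulation therefore does not show that changes as small as those of the members would be found. Per-kb levels, overlaps and shared words use the shortest principal protein-coding transcript. Intervals of the paralog shares are exact (Clopper-Pearson, 95%), and those of the member share are Wilson intervals (95%). These intervals and the floor of 3 counts cover counting error only. Background in pup replicate 1 is its rate over olfactory receptor genes per kb of exon. Python 3.11.15 was used for summaries. Named are the members on the role lists, the 6 highest and 6 lowest fold changes, the 4 highest and 4 lowest per kb, the paralog pairs, and per other list the genes called by DESeq2 or the 2 most abundant. The members and lists were chosen with earlier results of these data known. Replicate numbers were not treated as pairs in the main fit (correlation of deviations between same-numbered libraries -0.034). With 2 libraries per age this value cannot exclude a shared batch.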

Additional observations from a re-analysis of the deposited data

How the results depend on the processing

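No ribosomal protein gene was called under any of the alternatives run. The median log2 fold change of the family stayed within -0.31 and 0.05 across other scalings, filters and tools, and limma-voom gave the one positive value among them. Scaling moved the median of all genes from -0.24 to as low as -0.52 (library totals), where the members stood at -0.31. With 1 library left out the median of the family ranged from -0.68 to 0.68, the highest value being that without pup replicate 2. The adult minus pup difference in the member share was -0.39 percentage points with all libraries and ranged from -1.05 to 0.27 with 1 left out. Genes called on the other lists numbered 0 by edgeR, 6 by DESeq2 (4 higher, 2 lower in adults) and from 0 to 1 with 1 library left out; the 1 was Mrpl12 without adult replicate 2. With a replicate block, 0 members and 0 other genes were called. The family median was then -0.02, against -0.16 without the block. Whether same-numbered libraries share a batch is not known. Scaling to the summed member counts, chosen after seeing the data, gave a median of -0.04. In pup replicate 1 the expected background was over 10% of the count for 7 members.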
